A study of Homo sapiens with 5 samples.

Results

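The genes described here encode the extracellular part of WNT signalling. They were the protein-coding genes of GENCODE release 44 whose symbol is WNT, FZD, SFRP or DKK followed by digits, together with LRP5 and LRP6. This rule gave 39 of 20007 protein-coding genes, namely 19 ligands (WNT), 12 receptors (10 FZD genes, LRP5 and LRP6) and 8 secreted antagonists (4 SFRP and 4 DKK genes). A TEAD4 peak was assigned to a gene when its summit, the position of highest signal, lay in the gene body or within 50 kb of any of its transcription start sites (TSSs). By this rule 54 of the 21113 peaks belonged to the 39 genes, 27 to ligands, 19 to receptors and 8 to antagonists.

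The peaks came from chromatin immunoprecipitation of the transcription factor TEAD4 followed by sequencing (ChIP-seq) in LX-2, an established line of human hepatic stellate cells. All cells had received only DMSO, the solvent, so no treatment was compared. There were 3 TEAD4 ChIP samples and 2 input samples, and the peak list was made from ChIP replicates 1 and 3 together. It holds 1 value per peak and none per replicate, so neither the depth nor the spread between replicates is known, and no test of significance was made for any peak or gene. Assignment was by position alone, expression data were not analysed here, and the identity of the cells was therefore not checked against marker genes.

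WNT proteins are secreted, lipid-modified ligands that bind Frizzled (FZD) receptors. In the canonical branch, FZD acts with the coreceptors LRP5 or LRP6 to stabilise β-catenin, which activates genes together with TCF/LEF factors, while non-canonical branches act on cell polarity and calcium. SFRP proteins bind WNT ligands through a domain that resembles that of FZD, and DKK proteins of the DKK1 type bind LRP5 and LRP6 and keep them from acting with FZD. In the liver, WNT ligands from endothelial cells maintain zonation of the hepatocytes, and TEAD factors bind DNA at sites with the core CATTCC and are the DNA-binding partners of YAP1.

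To show what lay under the summits, windows of the summit and the 50 bases to either side of it are given in 3 sets. Coordinates are those of hg38. Each sequence is written 5′ to 3′ on the strand named with it, which is the strand that carries the motif where there is one. The first set holds 6 peaks of the genes described most fully in which the TEAD motif ACATTCC, in capitals, was found, except for that of FZD6, which is not printed. It is shown because these sites combine the factor's peak with its known recognition sequence.
WNT2B, chr1:112515740-112515840, minus strand: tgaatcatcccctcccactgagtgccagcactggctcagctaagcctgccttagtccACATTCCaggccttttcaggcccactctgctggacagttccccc
WNT3, chr17:46727749-46727849, minus strand: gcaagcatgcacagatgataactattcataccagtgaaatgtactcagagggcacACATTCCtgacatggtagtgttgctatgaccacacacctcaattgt
WNT5A, chr3:55524987-55525087, plus strand: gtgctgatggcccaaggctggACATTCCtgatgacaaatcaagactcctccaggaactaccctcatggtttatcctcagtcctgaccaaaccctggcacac
WNT5B, chr12:1625577-1625677, minus strand: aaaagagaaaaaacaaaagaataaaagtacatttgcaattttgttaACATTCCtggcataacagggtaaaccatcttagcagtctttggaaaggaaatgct
LRP5, chr11:68354299-68354399, minus strand: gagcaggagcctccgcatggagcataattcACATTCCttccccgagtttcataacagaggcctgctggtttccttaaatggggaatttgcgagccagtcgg
DKK3, chr11:12042413-12042513, plus strand: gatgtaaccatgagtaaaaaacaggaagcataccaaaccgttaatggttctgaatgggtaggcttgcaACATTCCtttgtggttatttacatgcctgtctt
The distance from the centre of the motif to the summit was 1 bp at WNT5B, 8 bp at WNT3, 10 bp at WNT2B, 17 bp at LRP5, 21 bp at DKK3 and 26 bp at WNT5A. The site at WNT5B lay almost exactly at the highest signal of its peak, whereas that at WNT5A lay furthest from it among these 6.

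The second set holds the strongest peaks of WNT7A and FZD2, which are shown because neither contained ACATTCC but both contained the shorter core CATTCC, in capitals.
WNT7A, chr3:13850515-13850615, plus strand: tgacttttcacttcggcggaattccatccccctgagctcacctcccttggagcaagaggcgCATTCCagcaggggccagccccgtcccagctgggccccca
FZD2, chr17:44543245-44543345, plus strand: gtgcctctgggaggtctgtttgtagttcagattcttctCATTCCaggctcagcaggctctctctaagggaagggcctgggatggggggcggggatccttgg
The core lay 14 bp from the summit at WNT7A and 9 bp from it at FZD2. In the whole list, 40.3% of windows of this length held CATTCC on either strand and 20.1% held ACATTCC, so the shorter core is a common feature. Among the 54 peaks the numbers were 24 and 11.

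The third set holds the strongest peak of WNT2B and the strongest peak of DKK1, in whose windows neither form of the core was found on either strand.
WNT2B, chr1:112544134-112544234, plus strand: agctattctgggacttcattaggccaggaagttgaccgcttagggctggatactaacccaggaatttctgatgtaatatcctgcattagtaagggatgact
DKK1, chr10:52351964-52352064, plus strand: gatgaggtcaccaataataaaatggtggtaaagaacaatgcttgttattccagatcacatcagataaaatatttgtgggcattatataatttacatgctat
Both peaks had a signal value, the strength that the peak caller gave each peak, above 191.9, which only the top 10% of the list exceeded. All 6 of the 54 peaks above this limit lacked ACATTCC within 100 bp of the summit, and the strongest peak with it was that of LRP5, at 160.1. These 6 peaks are too few for a statement on strong peaks, most of which would lack the motif at the 23.0% of the whole list. Among peaks above the median signal value of the list, 34.5% of those of the 39 genes held it, beside 27.9% of the list.

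Of the 19 ligand genes, 11 had a TEAD4 peak (57.9%, Wilson 95% interval 36.3 to 76.9%). Of the 12 receptor genes, 9 had one (75.0%, interval 46.8 to 91.1%), and of the 8 antagonist genes, 2 had one, DKK1 and DKK3 (25.0%, interval 7.15 to 59.1%). Together, 22 of the 39 genes had a peak (56.4%, interval 41.0 to 70.7%), beside 56.2% of all protein-coding genes. The share over the 39 genes was thus that of the background. The order of receptors, ligands and antagonists is a description, since the 3 intervals overlap, and it turned with the distance. With a limit of 10 kb, 42.1% of ligand, 33.3% of receptor and 25.0% of antagonist genes had a peak, beside 34.0% of all protein-coding genes. With 100 kb the shares were 84.2% of ligand, 75.0% of receptor and 62.5% of antagonist genes, beside 72.0% of all protein-coding genes. These intervals cover counting error only and treat genes as independent, although neighbouring genes can share a peak.

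**Figure D1:**
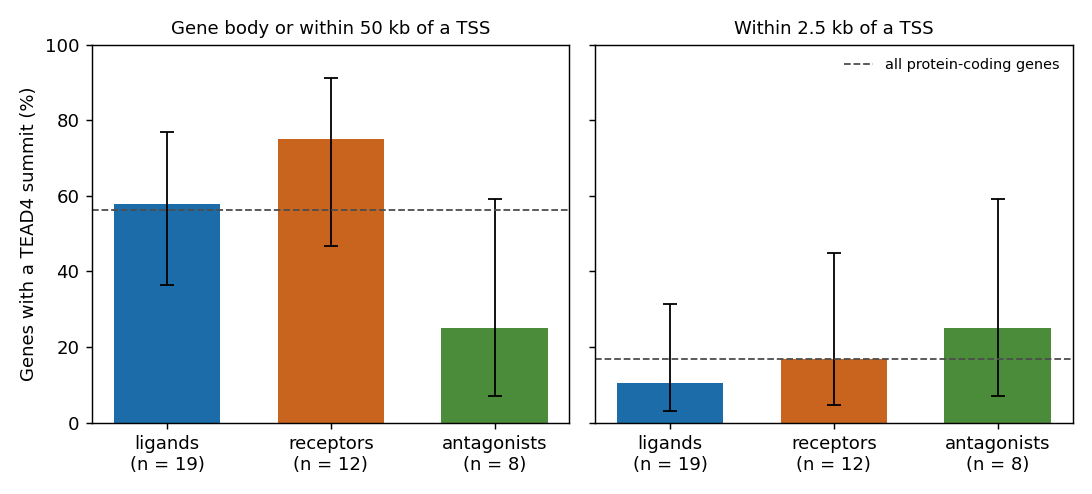
Percent of ligand, receptor and antagonist genes with a TEAD4 summit in the gene body or within 50 kb of a TSS (left) and within 2.5 kb of a TSS (right). Bars are shares, error bars are Wilson 95% intervals and dashed lines are the shares of all protein-coding genes (56.2% and 16.7%); on the left the bars stand at 57.9%, 75.0% and 25.0%, and on the right at 10.5%, 16.7% and 25.0%.

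Within 2.5 kb of a TSS, a summit was found at 2 ligand genes (WNT2B and WNT5A), 2 receptor genes (LRP6 and FZD7) and 2 antagonist genes (DKK1 and DKK3). These 6 genes were 15.4% of the 39 (interval 7.25 to 29.7%), beside 16.7% of all protein-coding genes. The gene was itself the coding gene with the nearest TSS for at least 1 of its peaks in 17 cases (43.6%, interval 29.3 to 59.0%), beside 32.8% of all protein-coding genes. This held for 9 ligands, 6 receptors and both antagonists with a peak. A peak with the TEAD motif was assigned to 12 of the 39 genes (30.8%, interval 18.6 to 46.4%), beside 24.2% of all protein-coding genes. They were 7 ligands, 4 receptors and 1 antagonist.

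Because windows differ in length between genes, the summits were also counted per length, with overlapping windows merged. There were 1.41 summits per 100 kb at ligands (Poisson 95% interval 0.931 to 2.06), 1.23 at receptors (0.743 to 1.93) and 0.629 at antagonists (0.271 to 1.24). Over all 39 genes the density was 1.14 per 100 kb (0.859 to 1.49), and over all protein-coding genes it was 0.885. Of the 39 genes, 10 (25.6%) had 3 or more peaks, beside 19.5% of all protein-coding genes.

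**Figure D2:**
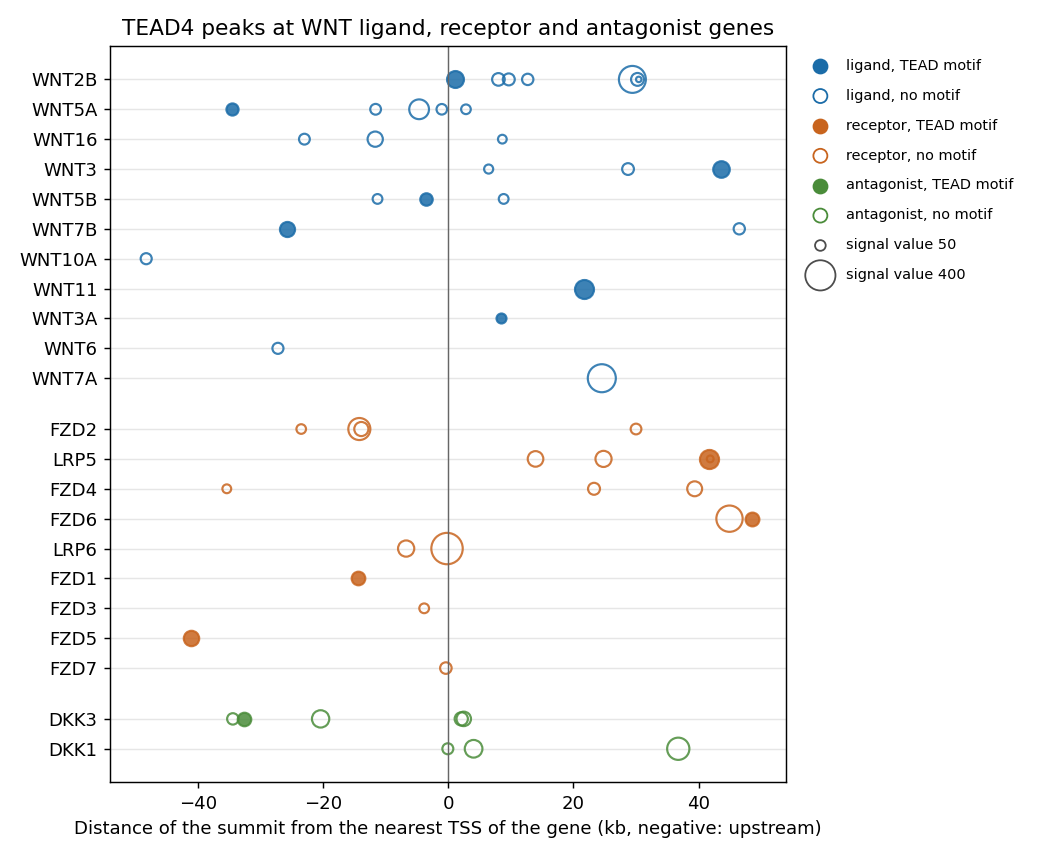
Distance in kb of each summit from the nearest TSS of its gene (x axis, negative values upstream) for the 22 genes with a peak, in rows grouped by class. The area of a circle is proportional to the signal value and filled circles mark the TEAD motif within 100 bp of the summit. All 7 summits of WNT2B lay downstream of a TSS, and the largest circle is that of LRP6, 179 bp upstream of the TSS.

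Among the ligands, WNT2B, a ligand of the canonical branch on chromosome 1 (112466541 to 112530165, plus strand), had the most peaks, 7. The nearest, at chr1:112515671-112515924, lay 1038 bp downstream of a TSS in an intron, had a signal value of 125.4 and contained the TEAD motif shown in the first set. Its strongest peak, at chr1:112544027-112544361, had a signal value of 318.3, higher than 97.0% of the list. That peak lay 29432 bp downstream of a WNT2B TSS but in an intron of ST7L, 2209 bp from a TSS of ST7L. ST7L was the nearest coding gene for 6 of the 7 peaks, so that position assigns only the peak at 1038 bp to WNT2B before any other coding gene. The other 5 peaks had signal values from 13.1 to 72.6, and 3 of them lay in the 3′ UTR of WNT2B, with signal values of 69.8, 62.7 and 56.3. Near the strongest peak, summits were 817 and 199 bp apart, and whether these are separate sites was not tested.

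WNT5A, the prototype of the non-canonical ligands, on chromosome 3 (55465715 to 55490539, minus strand), had 5 peaks, and WNT5A was the nearest coding gene for all 5. The signal values were 49.0 at 1015 bp, 171.0 at 4640 bp, 50.8 at 11588 bp and 64.7 at 34498 bp upstream, and 40.9 in the 3′ UTR. The peak at 4640 bp, chr3:55495057-55495281, in an intron of a lncRNA gene, stood well above the others of the locus. The TEAD motif was found in the peak furthest upstream, which lay in an intron of ERC2, and in none of the other 4. WNT5A and WNT2B were the ligands with the most peaks, and they differed in that the peaks of WNT5A lay mostly upstream and those of WNT2B downstream.

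WNT5B, the closest relative of WNT5A, on chromosome 12 (1529891 to 1647212, plus strand), had 3 peaks in its introns. That with the motif at the summit, 3604 bp upstream of one of its TSSs, had a signal value of 68.3, and the others, at 8868 and 11285 bp, had values of 41.9 and 41.6. The one at 8868 bp contained the RUNX motif, and FBXL14 had the nearest coding TSS to the one at 11285 bp. All 3 were thus of middle or low strength for the list, whose median was 68.1.

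WNT3, a canonical ligand on chromosome 17 (46762506 to 46833154, minus strand), had 3 peaks with signal values of 120.7, 60.8 and 36.2. The former pair lay 43648 and 28738 bp downstream in introns of NSF, which had the nearest coding TSS, and the TEAD motif was in the strongest. The weakest lay in an intron of WNT3 itself, 6470 bp from a TSS. WNT16, a ligand known for its role in bone, had 3 peaks on chromosome 7 with signal values of 101.8 at 11652 bp upstream, 51.3 at 22963 bp upstream and 33.5 at 8657 bp downstream. None had the TEAD motif, the weaker upstream peak had the AP-1 motif, and WNT16 had the nearest coding TSS to all 3.

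WNT7A, a ligand on chromosome 3 (13816258 to 13880071, minus strand), had a single peak, but it was the strongest of all ligand peaks. It lay at chr3:13850385-13850743 in an intron of WNT7A, 24548 bp downstream of a TSS, and its signal value of 344.0 was above 97.6% of the list. WNT7B, its closest relative, had 2 peaks. The peak 25802 bp upstream had a signal value of 100.2 and contained both the TEAD and the AP-1 motif, and that in its intron, at 46510 bp, had a value of 55.5 and none of the motifs searched.

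WNT11, which acts in planar cell polarity, had 1 peak 21757 bp downstream of a TSS with a signal value of 158.3 and the TEAD motif 7 bp from the summit. WNT3A, the ligand most often used to activate the canonical branch, had 1 peak in its intron with a value of 43.7 and the motif 76 bp from the summit. WNT6 and WNT10A lie side by side on chromosome 2 and shared 1 peak with a value of 53.7, which was 27192 and 48239 bp upstream of their TSSs but 527 bp from a TSS of PRKAG3. It contained the AP-1 motif, and no other peak was assigned to either gene.

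The other 8 ligand genes had no peak. The distance from the nearest of their TSSs to the closest summit was 50.8 kb at WNT8A, 63.0 kb at WNT2, 67.5 kb at WNT9A, 68.2 kb at WNT9B, 84.6 kb at WNT4, 152.0 kb at WNT1, 158.6 kb at WNT10B and 427.8 kb at WNT8B. WNT8A was thus just outside the limit, while the peak of FZD6 at 48618 bp and that of WNT10A at 48239 bp were just inside it. WNT2 and WNT9B, both known as products of liver endothelial cells, were among the genes without a peak. Among neighbouring ligand genes, WNT3 had 3 peaks and WNT9B none although their closest TSSs were 47 bp apart. None of the 3 lay near that pair of TSSs. They were assigned to WNT3 through its body or a TSS inside the gene. The summit in the intron of WNT3 was also the closest to WNT9B, at 68.2 kb, so the contrast reflects the windows. The adjacent genes WNT1 and WNT10B both had none.

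Among the receptors, LRP6, a coreceptor of the canonical branch on chromosome 12 (12116025 to 12267044, minus strand), had the strongest peak of all 39 genes. It lay at chr12:12266999-12267422 with its summit 179 bp upstream of the TSS, and its signal value of 431.8 was above 98.9% of the list. A further LRP6 peak, 6711 bp upstream, had a signal value of 115.3, and LRP6 had the nearest coding TSS to both.

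LRP5, the closest relative of LRP6, on chromosome 11 (68312591 to 68449275, plus strand), had 4 peaks and none within 2.5 kb of a TSS. The strongest, at chr11:68354228-68354442 in an intron of LRP5, had a signal value of 160.1 and the TEAD motif, and a weak summit of value 20.3 lay 200 bp from it. The other 2 peaks, with values of 106.5 and 113.8, lay beyond the end of the gene in introns of PPP6R3, the first of them 127 bp from a TSS of that gene. The 2 coreceptors therefore differed in where their peaks lay, at the start of LRP6 and inside or beyond the body of LRP5.

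FZD2, a receptor able to bind WNT5A, on chromosome 17 (44557484 to 44561262, plus strand), had 4 peaks, all intergenic and nearest to FZD2. The pair at 14189 and 13870 bp upstream had signal values of 212.9 and 87.4 and summits 319 bp apart. The others had values of 40.5 at 23474 bp upstream and 50.2 at 30014 bp downstream. The TCF/LEF motif was in the peaks at 13870 and 23474 bp, the AP-1 motif was in the downstream peak, and the TEAD motif was in none.

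FZD7, a receptor of the canonical branch on chromosome 2, had 1 peak whose summit was 366 bp upstream of the TSS, inside the exon of a lncRNA, with a signal value of 58.2 and the TCF/LEF motif. FZD6, which acts in planar cell polarity, had 2 peaks far downstream, at 44946 and 48618 bp, with values of 302.8 and 83.2. The stronger contained the AP-1 and RUNX motifs and the weaker the TEAD motif, but CTHRC1, the gene of a secreted protein of injured tissue, had the nearer coding TSS, 26638 and 22966 bp away. FZD4, the receptor of norrin as well as of WNT ligands, had 3 peaks with values of 97.4, 62.7 and 34.0. The stronger pair lay in introns of PRSS23, which had the nearest coding TSS, the second of them with the RUNX motif, and the third lay 35364 bp upstream within a lncRNA gene, in its intron.

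Single peaks were found at FZD1, FZD3 and FZD5. That of FZD1 lay 14437 bp upstream with a signal value of 81.4 and contained both the TEAD and the AP-1 motif, as only the upstream peak of WNT7B also did among the 54. That of FZD5 lay 41031 bp upstream with a value of 103.9 and the TEAD motif, nearer to PLEKHM3. That of FZD3 lay 3832 bp upstream with a value of 41.6, but 95 bp from a TSS of FBXO16. FZD8, FZD9 and FZD10 had no peak, and their closest summits were 194.5, 123.5 and 405.3 kb from the TSS.

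Among the antagonists, peaks were found at DKK1 and DKK3 and at no gene with an SFRP symbol. DKK1, which binds LRP5 and LRP6 and is itself a known target of β-catenin, on chromosome 10 (52314281 to 52318042, plus strand), had 3 peaks, and DKK1 was the nearest coding gene for all 3. The summit of the first lay 51 bp upstream of the TSS, in an exon of the lncRNA gene PRKG1-AS1 on the same stretch, with a signal value of 52.7. The peaks at 4064 and 36762 bp downstream had values of 136.6 and 216.8, so the signal was higher away from the promoter than at it. The TCF/LEF motif was in the promoter peak and in that at 4064 bp, where the AP-1 motif was found too.

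The 150 bases before the DKK1 TSS are shown because this summit was the closest to a TSS among the 54, a choice made after its values were seen. The sequence is that of RefSeq on GRCh38.p14, whose promoter table held 26 of the 39 genes. Capitals mark CTTTGAA, a TCF/LEF motif, and GGAATG, which is CATTCC on the other strand.
DKK1, chr10:52314131-52314280, plus strand: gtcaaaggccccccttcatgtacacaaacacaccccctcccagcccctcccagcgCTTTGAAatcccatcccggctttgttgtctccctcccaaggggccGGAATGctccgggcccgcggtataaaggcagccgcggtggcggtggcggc
The GGAATG lay 50 to 45 bp before the TSS with its centre 4 bp from the summit, and the CTTTGAA lay 95 to 89 bp before the TSS, 41 bp from the summit. Of 35116 RefSeq promoters, each running from 250 bases before to 50 after a start, 7.08% held CATTCC and 3.3% a TCF/LEF motif on either strand. Those promoters were not chosen for a peak, and they are longer than the 150 bases printed. Within 100 bp of the summits of the whole list, 46.8% of peaks held CATTCC and 7.4% a TCF/LEF motif, so CATTCC is common under a peak. A match of letters is a description and not a shown site of binding.

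DKK3, a divergent member of the family that does not act on LRP5 and LRP6 as DKK1 does, on chromosome 11 (11956207 to 12009769, minus strand), had 5 peaks, all with DKK3 as the nearest coding gene. Their signal values were 91.7 and 77.1 in introns, 2495 and 2095 bp downstream of a TSS, and 131.5, 80.3 and 56.9 at 20376, 32694 and 34402 bp upstream. The strongest upstream peak and the furthest one contained the AP-1 motif. The peak at 32694 bp, intronic in a lncRNA gene, contained the TEAD and the RUNX motif and is shown in the first set.

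The other 6 antagonist genes had no peak within the limit. The closest summit was 62.4 kb from a TSS at SFRP5, 71.2 kb at SFRP1, 161.4 kb at SFRP4 and 198.3 kb at SFRP2, and it was 84.2 kb away at DKK4 and 269.1 kb at DKK2. By this rule the 4 genes with an SFRP symbol, whose products bind the ligands, had no peak, nor did DKK2 and DKK4, which like DKK1 bind LRP6. Of the 20007 protein-coding genes, 8762 had none either. The absence also depended on the limit, since with 100 kb 62.5% of antagonist genes had a peak, beside 72.0% of all protein-coding genes.

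The signal value had a median of 60.8 over the 27 ligand peaks, 87.4 over the 19 receptor peaks and 86.0 over the 8 antagonist peaks. The median over all 54 was 71.2, beside 68.1 for the whole list, and 29 of them (53.7%) were above that list median. This was the case for 11 ligand, 12 receptor and 6 antagonist peaks. The values of each class overlapped widely, from 13.1 to 344.0 for ligands, 20.3 to 431.8 for receptors and 52.7 to 216.8 for antagonists. In the top 10% of the list were 2 ligand peaks (WNT7A and WNT2B), 3 receptor peaks (LRP6, FZD6 and FZD2) and 1 antagonist peak (DKK1). The highest score for the irreproducible discovery rate (IDR), which ranks how well a peak repeats between replicates, was given to 43 of the 54 peaks (79.6%), beside 75.6% of the peaks of all protein-coding genes, and only the weakest, at WNT2B, had a q-value above 0.05.

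**Figure D3:**
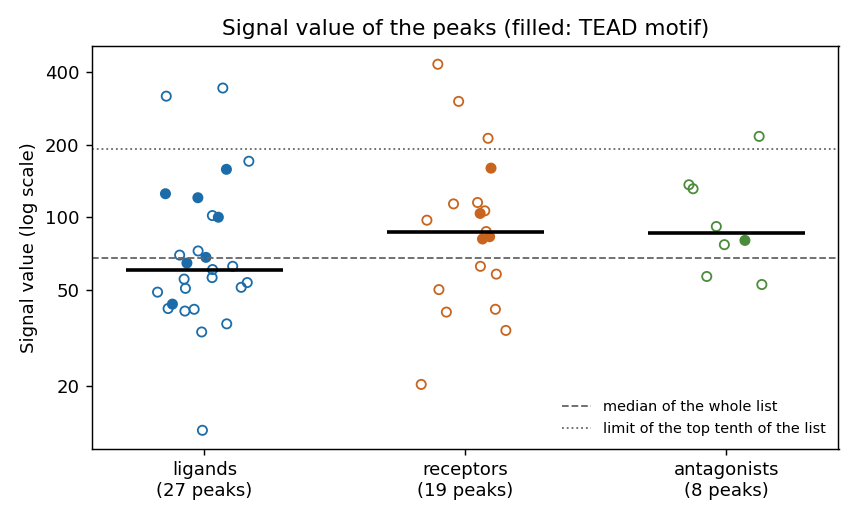
Signal value (log scale) of each peak of ligand, receptor and antagonist genes, with class medians as thick bars at 60.8, 87.4 and 86.0. The dashed line is the median of the whole list (68.1) and the dotted line the limit of its top 10% (191.9). Above the dotted line lie 6 peaks, none of them filled, where filled points mark the TEAD motif. Of all points above the dashed line, 34.5% are filled, beside 27.9% of the peaks of the list above its median.

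Of the 54 peaks, 30 lay downstream and 24 upstream of the nearest TSS of their gene. The median distance was 17.4 kb, with 11.7 kb for ligand, 23.5 kb for receptor and 12.2 kb for antagonist peaks. Of the 54, 7 were within 2.5 kb and 27 were beyond 20 kb. Summits lay in introns in 28 cases, between genes in 20 and in exons in 6. Another coding gene had the nearest TSS for 10 ligand peaks and 8 receptor peaks and for no antagonist peak. The positions of the whole list were not counted in this way, so these numbers show nothing particular to the 39 genes. By gene, the share with a summit within 2.5 kb was 15.4%, beside 16.7% of all protein-coding genes.

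Motifs were read in the 100 bp to either side of the summit, on either strand. The TEAD motif ACATTCC was in 12 of the 54 peaks (22.2%, Wilson 95% interval 13.2 to 34.9%), beside 23.0% of the whole list, and so was as frequent as in the background. It was in 7 of 27 ligand, 4 of 19 receptor and 1 of 8 antagonist peaks. The AP-1 motif, TGACTCA or TGAGTCA, was in 10 peaks (18.5%, interval 10.4 to 30.8%), beside 25.4% of the list. The RUNX motif TGTGGTT was in 4 (7.41%, interval 2.92 to 17.6%), beside 9.53%. The TCF/LEF motif, CTTTGAA or CTTTGAT, through which β-catenin reaches its targets, was in 6 (11.1%, interval 5.19 to 22.2%), beside 7.4%. These 6 peaks belonged to DKK1 and FZD2, with 2 each, and to FZD7 and WNT2B. Each of the 4 intervals includes the share of the whole list, and 27 of the 54 peaks had none of these motifs, beside 46.4% of the list. The 6-base core CATTCC, which is part of ACATTCC, was in 25 peaks (46.3%), beside 46.8%.

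**Figure D4:**
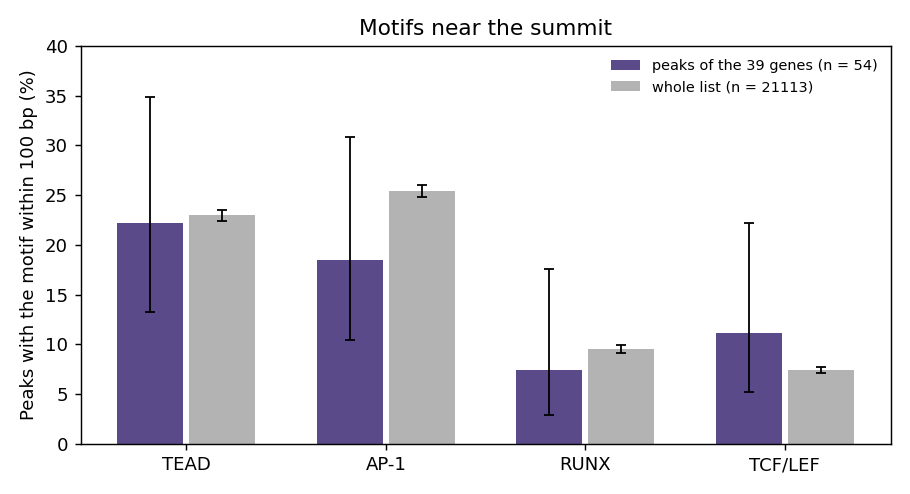
Percent of peaks with each motif within 100 bp of the summit, for the 54 peaks of the 39 genes and for the whole list of 21113 peaks, with Wilson 95% intervals as error bars. The paired bars stand at 22.2% and 23.0% for TEAD, 18.5% and 25.4% for AP-1, 7.41% and 9.53% for RUNX, and 11.1% and 7.4% for TCF/LEF, and each interval of the 54 peaks includes the value of the list.

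Other genes of the pathway were taken from a list of 50 ordered by role. Of these, 32 had a peak (64.0%, interval 50.1 to 75.9%) and 12 had one within 2.5 kb of a TSS (24.0%, interval 14.3 to 37.4%), beside 56.2% and 16.7% of all protein-coding genes. The other antagonists had a peak in 4 of 11 cases (36.4%, interval 15.2 to 64.6%), again a lower share than that of all genes but with an interval that includes it. All 4 other receptors had peaks, among them ROR1 with 14 and ROR2 with 12. Both are receptors of WNT5A, and their highest signal values were 505.1 and 192.3. Of ROR2's summits, 4 lay within 2.5 kb of a TSS, the nearest at 55 bp, whereas the nearest to a TSS of ROR1 was 42013 bp away.

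All 3 genes of ligand secretion and processing had a peak, and WLS, the carrier of WNT proteins to the cell surface, had 2, both with the TEAD motif, and 1 of them lay 2140 bp from a TSS. Of the 9 genes that amplify signalling or turn over receptors, 6 had a peak (66.7%, interval 35.4 to 87.9%). The interval of the 3 genes of secretion and processing starts at 43.9%, so both intervals include the 56.2% of all protein-coding genes. LGR4, a receptor for R-spondin, had a summit 65 bp from a TSS, and RNF43, a ligase that removes FZD receptors from the surface, had one at 163 bp. The other antagonists are those whose symbol is not SFRP or DKK followed by digits, so members of these families under other symbols can be among them. Of these, TRABD2A, a membrane protease that inactivates WNT proteins, had 9 peaks, the nearest at 58 bp and the strongest with a signal value of 324.1. KREMEN2, a partner of DKK1, had 1 weak peak of value 33.5 at 339 bp. FRZB had 1 weak peak of value 34.2 at 49147 bp.

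Of the 23 intracellular genes, 15 had a peak (65.2%, interval 44.9 to 81.2%), an interval that includes the 56.2% of all protein-coding genes. CTNNB1, the gene of β-catenin, had 2, the nearest 771 bp from a TSS, and TCF7, one of the TCF/LEF factors, had 1 at 138 bp. BCL9L, a coactivator of β-catenin, had 5, of which 4 lay within 2.5 kb of a TSS, and their highest signal value was 245.2. DVL1 and DVL3, which carry the signal from FZD, had their strongest peaks at 333.5 and 95.7, with the nearest summit at 11334 and 128 bp. DAAM1 and DAAM2, of the non-canonical branch, had 9 and 4 peaks, with highest values of 294.0 and 108.8 and nearest summits at 901 and 510 bp. No peak was assigned to AXIN1, AXIN2, APC, APC2, GSK3A, LEF1, BCL9 or NKD1.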

How the data were processed

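TEAD4 ChIP-seq and input samples came from DMSO-treated LX-2 cells. Reads were aligned by the authors to hg38 using Chromap. The paper reports that IDR found only replicates 1 and 3 sufficiently concordant, so the ENCODE IDR pipeline was run again on this pair, leaving out replicate 2. The deposited list of 21113 peaks gives each peak a score, which is its IDR on a scaled range. It also gives, as deposited, a signal value and the −log10 of a q-value, both from the peak caller, whose name is not given in the sources used here. The columns were identified from their layout and values.

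Genes and TSSs were taken from GENCODE release 44, chromosomes 1 to 22, X and Y. Motifs were searched in hg38 sequence around the summits. Shares were given with Wilson and densities with Poisson 95% intervals, which cover counting error only. Depth per sample is unknown and no replicate could be left out in turn. Alternatives changed the distance, TSSs, peaks kept and motif window. Members, lists and alternatives were chosen with earlier results of these data known.

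Genes were described in full if among the 5 of a class with the most peaks, if a summit lay within 2.5 kb of a TSS, or if their signal value was the highest of the class. Other pathway genes were named if a summit lay within 2.5 kb of a TSS or for the 3 highest signal values; further names were added after values were seen. Sequences were not printed for summits on chromosome 8 or in exons, and others are not reported here. Code was tested on simulated data. Python 3.11.15, numpy 2.4.6, pandas 2.3.3, scipy 1.17.1, pysam 0.24.0 and matplotlib 3.10.9 were used.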

Additional observations from a re-analysis of the deposited data

How the results depend on the processing

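For 6 results, 57 alternative settings were computed, of which 51 stayed within the 95% interval of the reported value. These intervals are wide with so few genes, so staying within them says little on how stable a value is. The median signal value counted as within both at 10 kb, with 58.2, and at 100 kb, with 78.7, beside 68.1 for the whole list. With a limit of 100 kb in place of 50 kb, 84.2% of ligand genes and 62.5% of antagonist genes had a peak, beside 72.0% of all protein-coding genes, and with 10 kb, 33.3% of receptor genes had one, beside 34.0%. The share of antagonists thus moved from 25.0% at 50 kb to well over that at 100 kb. The density of summits fell to 0.614 per 100 kb with only peaks above the median signal value and to 0.762 with only peaks for which the gene had the nearest coding TSS. With the core CATTCC in place of the TEAD motif, the share of peaks was 46.3%, beside 46.8% of the list. The cause of these shifts was not tested, beyond that fewer peaks or fewer letters enter by construction. No paired analysis was possible because the peak list combines the replicates and no value came from a test. The few genes per class and the unknown depth limit all comparisons: a gene without a peak has none in this list, and weaker binding was not detectable here.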
